A study of Oryza sativa with 6 samples.

Results

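The distal arms of rice chromosome 3 were examined for G-quadruplexes (G4s) formed in vitro, as mapped by BG4-DNA-IP-seq. The left arm was taken from 0.5 to 12 Mb and the right arm from 26 to 35.9 Mb of chromosome 3 in MSU v7.0, and a peak belonged to an arm when its summit lay there. This rule chose 14520 of the 289038 peaks in 4 lists, 7662 in the left arm and 6858 in the right arm. The arms hold 21.4 Mb, which is 5.73% of the 373 Mb spanned by peaks on the 12 chromosomes. The arms were labelled as gene-rich, but gene annotation on these coordinates was not used here, so that label was not checked and no gene is named.

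A G4 is a 4-stranded DNA structure in which guanines from several G-runs pair in stacked planes around a potassium ion. BG4 is a single-chain antibody that binds folded G4s and is used to pull down the DNA that carries them. Polyethylene glycol (PEG) crowds the solution and draws water away from DNA, and pyridostatin (PDS) is a small molecule that stacks on the outer planes of a G4. Both stabilise G4s, and the study compared them genome-wide.

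The DNA came from 2-week-old wild-type seedlings of the cultivar Nipponbare, whose tissue was cross-linked before DNA was isolated, fragmented, denatured and refolded. The K+PEG condition (2 libraries) combined 150 mM KCl with 40% PEG200, and the K+PDS condition (2 libraries) combined 150 mM KCl with 5 μM PDS. The PDS dose stands in the methods of the study, whereas the protocol text that all samples share names PEG200 and no PDS. The assay was performed on purified DNA and reads folding in a tube, not in nuclei, and the methods describe the replicates of a condition as biological. P-values measure the spread between these 4 libraries. Files of the 2 input libraries were not used here.

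The deposited lists held 73199 and 81992 peaks under K+PEG and 64874 and 68973 under K+PDS, for replicates 1 and 2 in that order, which is kept below. Read totals are not in the lists, but the lowest background level gave depths of 1.32 and 2.23 for K+PEG and 1.00 and 1.26 for K+PDS relative to the shallowest library. The depth, the number of peaks and the condition thus move together, and the part of depth in the differences between conditions cannot be told apart from that of the buffer. The word uniq is part of the peak names under K+PDS but not under K+PEG. Whether a filter for uniquely mapped reads was applied to one condition alone was not tested.

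The arms held fewer peaks per Mb than the rest of the genome in all 4 libraries. The arms had 4020 and 4230 peaks under K+PEG and 2850 and 3420 under K+PDS. This corresponded to 188 and 198 peaks per Mb in the arms against 197 and 221 in the rest under K+PEG, and to 133 and 160 in the arms against 176 and 186 in the rest under K+PDS. The density in the arms was 0.863 times that of the rest as a geometric mean over libraries, and the log2 ratio averaged -0.21 ± 0.14 (SD, n = 4; exact sign-flip permutation test, two-sided, p = 0.13). This is the smallest p that 4 libraries allow, so no comparison of regions could pass 0.05.

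The deficit differed between libraries. K+PEG replicate 1 was close to the rest, with a log2 ratio of -0.07, and K+PEG replicate 2 had -0.16. The K+PDS replicates had -0.40 and -0.22, both further below the rest than either K+PEG library. In the middle of chromosome 3, from 12 to 26 Mb, the density was 211 and 236 peaks per Mb under K+PEG and 186 and 190 under K+PDS. All 4 libraries thus had fewer peaks per Mb in the arms than between them.

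Both arms had similar peak densities. The left arm had 184 and 196 peaks per Mb against 193 and 200 in the right arm under K+PEG, and 129 and 158 against 138 and 162 under K+PDS. The left arm was lower in 4 of 4 libraries, at 0.960 times the right arm (exact sign-flip permutation test, two-sided, p = 0.13, n = 4). With every limit moved inward by 1 Mb, the log2 ratio of left over right was -0.01 and the order was no longer the same in all libraries (p = 0.75, same exact test).

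**Figure D1:**
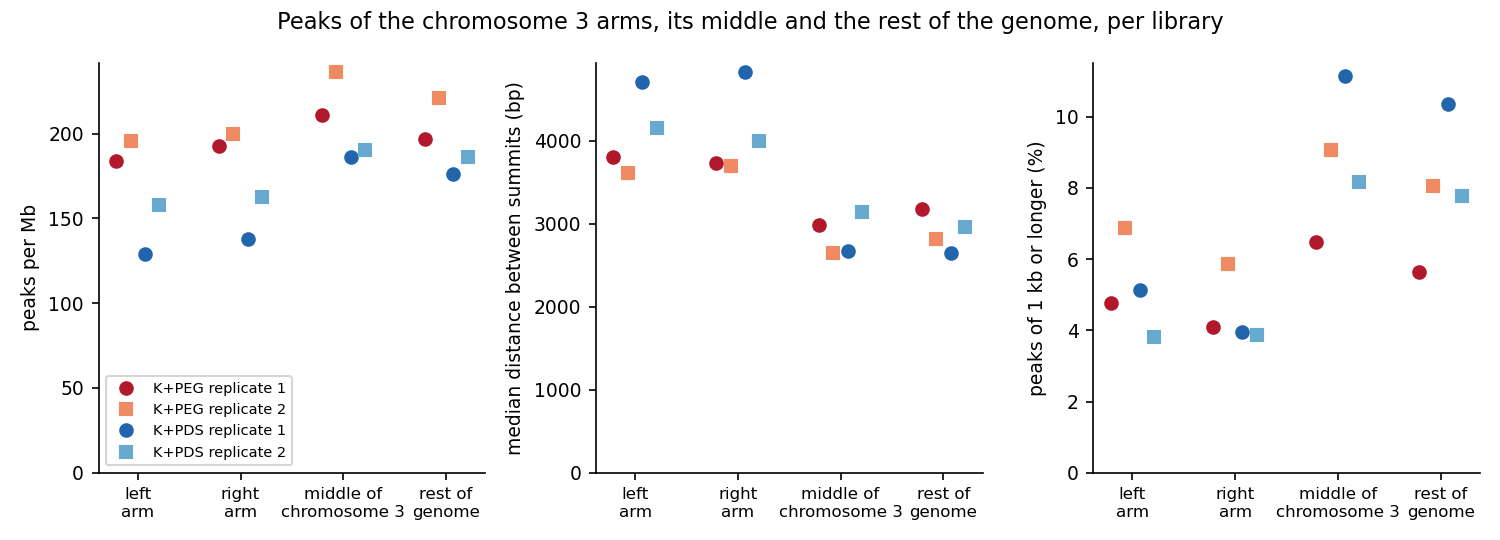
Peaks per Mb, median distance between neighbouring summits (bp) and share of peaks of 1 kb or longer (%) in the left arm, the right arm, the middle of chromosome 3 and the rest of the genome, with 1 point per library. Both arms lie near each other in every panel, with wider spacing than the rest (3619 to 4830.5 bp against 2654 to 3175 bp) in all 4 libraries.

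Peaks covered 8.49 and 9.53% of the arms against 9.34 and 11.3% of the rest under K+PEG, and 5.80 and 6.78% of the arms against 9.29 and 8.997% of the rest under K+PDS. The covered share of the arms was lower in 4 of 4 libraries, 0.776 times that of the rest (exact sign-flip permutation test, two-sided, p = 0.13, n = 4). Arm peaks were also shorter. Their median length was 372 and 386 bp in the arms against 383 and 402 bp in the rest under K+PEG, and 346 and 343 bp against 377 and 359 bp under K+PDS. The difference in medians was -18.5 ± 8.66 bp (SD, n = 4; same exact test, p = 0.13).

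Few long peaks lay in the arms. Peaks of 1 kb or longer made up 4.45 and 6.41% of arm peaks against 5.64 and 8.05% of the others under K+PEG, and 4.56 and 3.83% against 10.3 and 7.78% under K+PDS. Of peaks of 2 kb or longer, the arms held 2 and 10 under K+PEG and 7 and 7 under K+PDS, while the rest held 133 and 332 under K+PEG and 1059 and 564 under K+PDS. Per Mb, this was 0.247 and 0.495 times the rest for K+PEG and 0.109 and 0.204 times for K+PDS. Peaks of at least 300 and under 500 bp, in contrast, reached 1.01 and 0.980 times the density of the rest under K+PEG and 0.803 and 0.915 times under K+PDS. The ratio to the rest was thus lowest among long peaks, and from 1 kb upwards it was lower in both K+PDS than in both K+PEG libraries. In numbers, however, peaks of 1 kb or longer made up only 30.9 and 21.9% of the peaks per Mb by which the arms fell short under K+PEG, and 28.2 and 31.6% under K+PDS, so most of the shortfall was among shorter peaks.

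**Figure D2:**
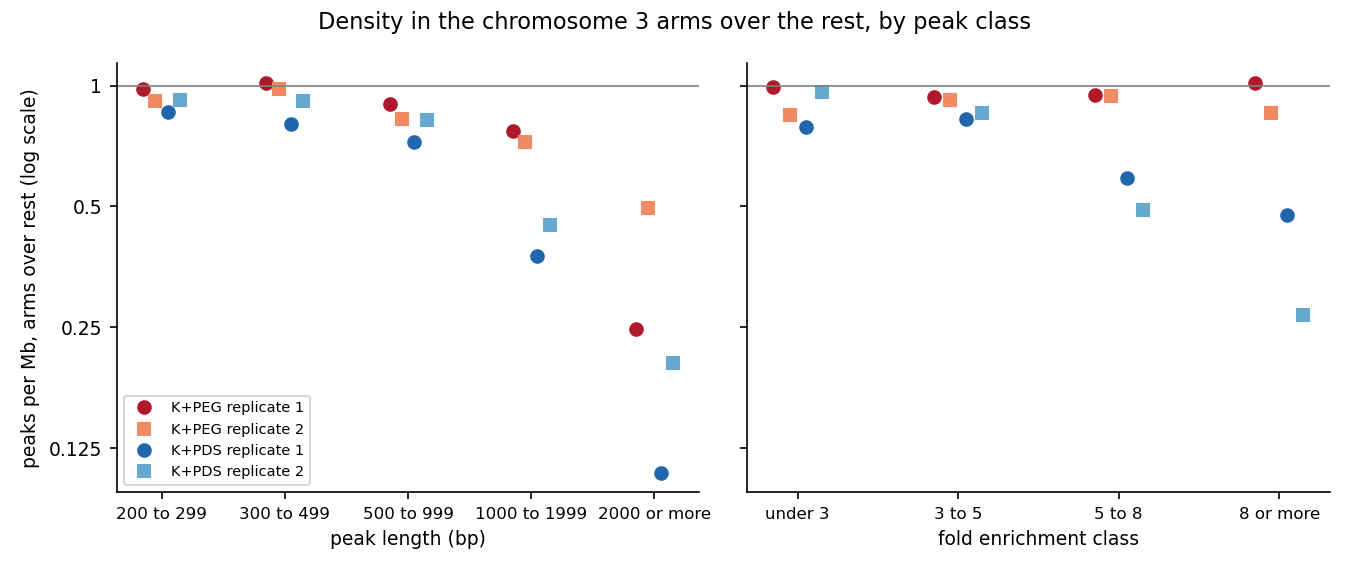
Density of peaks in the arms divided by that in the rest of the genome (log axis), by peak length and by fold enrichment, with 1 point per library and a line at 1. From 300 bp upwards the points lie lower with each length class in all libraries, down to 0.109 for K+PDS replicate 1, whereas for a fold enrichment of 8 or more only the K+PDS points lie below 0.5.

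Arm peaks were about as strong as other peaks at the median. The fold enrichment is the reads at the summit over the local background, with 1 added to each. Its medians were 3.76 and 3.64 in the arms against 3.78 and 3.59 in the rest under K+PEG. Under K+PDS they were 3.61 and 3.20 against 3.77 and 3.24. The mean difference of -0.04 ± 0.09 was smaller than its spread over libraries (SD, n = 4; exact sign-flip permutation test, two-sided, p = 0.5). The medians rested on 22 and 34 reads at the summit in K+PEG arm peaks and on 16 and 17 in K+PDS arm peaks, so single peaks are known less precisely under K+PDS. The left and right arms had medians of 3.72 and 3.82 in K+PEG replicate 1, 3.66 and 3.62 in K+PEG replicate 2, 3.65 and 3.61 in K+PDS replicate 1, and 3.20 in both arms for K+PDS replicate 2.

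In the arms, more strong peaks were found under K+PEG than under K+PDS. A fold enrichment of at least 8 was reached by 213 and 271 arm peaks under K+PEG but by 82 and 12 under K+PDS. These were 9.95 and 12.7 per Mb in the arms against 9.78 and 14.8 in the rest under K+PEG, and 3.83 and 0.561 against 8.06 and 2.08 under K+PDS. Arms therefore held 0.934 times the density of the rest under K+PEG and 0.358 times under K+PDS, a ratio of 2.61 between conditions (exact permutation test of 2 against 2 libraries, two-sided, p = 0.33, the smallest p possible). This class was examined after the values had been seen. Between fold 5 and 8 the ratios were 0.946 and 0.942 for K+PEG and 0.588 and 0.490 for K+PDS, whereas below fold 3 they overlapped between the conditions. At fold 12 and above, where the arms held 18 and 25 peaks under K+PEG and 10 and 3 under K+PDS, the arms had fewer peaks per Mb than the rest in both conditions, 0.598 times under K+PEG and 0.412 times under K+PDS, a ratio of 1.45 between them.

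The highest arm peak of either K+PEG library lay at the same place in the left arm, with a fold enrichment of 25.97 at chr3:11030824-11032739 in replicate 1 and of 17.6 at chr3:11030809-11032703 in replicate 2. These peaks carried 146 and 155 reads at the summit. The highest right-arm peaks also coincided, with 16.9 at chr3:32261884-32263196 and 15.6 at chr3:32261859-32263215. The highest K+PDS peaks did not coincide between replicates. Replicate 1 had its highest at chr3:5458464-5459569 with 19.8 and at chr3:26978393-26979243 with 19.4, and replicate 2 at chr3:6043000-6043363 with 12.6 and at chr3:26075805-26076542 with 15.5.

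Neighbouring summits stood further apart in the arms. The median spacing was 3772 and 3666 bp in the arms against 3175 and 2824 bp in the rest under K+PEG, and 4771 and 4072 bp against 2654 and 2963 bp under K+PDS. The arms had 1.40 times the spacing of the rest and the wider spacing in 4 of 4 libraries (exact sign-flip permutation test, two-sided, p = 0.13, n = 4). Median spacing differed by more than density did. Distances under 1 kb were less frequent in the arms, at 14.7 and 14.5% against 16.4 and 16.5% in the rest under K+PEG and at 15.2 and 15.5% against 20.0 and 18.2% under K+PDS. Distances over 10 kb took 14.8 and 13.2% against 13.8 and 10.98% under K+PEG, and 27.0 and 20.1% against 17.8 and 16.1% under K+PDS. K+PDS peaks in the arms thus had fewer short and more long distances between them than those in the rest. Such shares also depend on the density, and clustering beyond it was not tested.

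Over 100-kb windows, the arms were also more even. The number of peaks per window, averaged over the libraries, had a coefficient of variation of 0.232 over the 214 arm windows (0.243 left, 0.219 right). It was 0.284 over the 140 windows of the middle of chromosome 3. All 3512 windows outside the arms, some of them without any peak, had 0.323. The fullest arm window, 8900001 to 9000000 in the left arm, had 23 and 39 peaks under K+PEG and 27 and 29 under K+PDS. The emptiest, 35400001 to 35500000 in the right arm, had 12 and 10 under K+PEG and 5 and 7 under K+PDS. Peak-free intervals in all 4 lists were at most 28375 bp in the left arm (4982093 to 5010467) and 26636 bp in the right arm (27089364 to 27115999), against median intervals of 1839 bp in the left arm and 1704.5 bp in the right arm. Window counts of the arms had Spearman coefficients of 0.648 between the K+PEG replicates, 0.665 between the K+PDS replicates and 0.318 to 0.568 between conditions, given as a description because windows are not replicates.

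Within the left arm, the K+PEG density was higher towards the centromere. Split into 3 equal parts, the left arm held, from distal over central to proximal, 173, 183 and 196 peaks per Mb in K+PEG replicate 1 and 182, 190 and 215 in replicate 2. K+PDS densities had their lowest value in the central part, with 131, 121 and 135 in replicate 1 and 158, 148 and 167 in replicate 2. In the right arm, the proximal, central and distal parts held 191, 192 and 195 in K+PEG replicate 1, 205, 200 and 195 in replicate 2, 146, 142 and 127 in K+PDS replicate 1 and 162, 170 and 155 in replicate 2. The distal part of the right arm had the lowest K+PDS replicate 1 share of peaks of 1 kb or longer, 2.39%. These parts were compared without a test.

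K+PEG peaks outnumbered K+PDS peaks in the arms more than elsewhere. The density in the arms was 193 ± 6.94 peaks per Mb under K+PEG and 146 ± 18.8 under K+PDS (SD, n = 2 each), a ratio of 1.32. The rest had 209 ± 17.3 peaks per Mb under K+PEG and 181 ± 7.09 under K+PDS (SD, n = 2 each). When each library was set against its own rest, K+PEG arms were still 1.15 times K+PDS arms. Both K+PEG values lay above both K+PDS values (exact permutation test of 2 against 2 libraries, two-sided, p = 0.33, the smallest p possible). This removes only a factor that multiplies the counts of all regions alike. Whether depth or a mapping filter acts alike on arms and rest was not tested. For covered bases, the ratio in the arms was 1.43 and that relative to the rest 1.28, again without overlap of the libraries. For spacing, K+PEG arms had 0.844 times the median of K+PDS arms, and relative to the rest 0.790 times, also with p = 0.33 by the same exact test. With equal numbers of peaks per list, the ratio of spacing in the arms was 0.986 and the libraries overlapped (p = 0.667 by the same exact test). Without K+PDS replicate 1, the ratios relative to the rest were 1.08 for density and 0.904 for spacing.

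The median length in the arms was longer by 34.5 bp under K+PEG than under K+PDS (379 ± 9.90 and 344.5 ± 2.12 bp, SD, n = 2 each). The libraries did not overlap (exact permutation test of 2 against 2 libraries, two-sided, p = 0.33, the smallest p possible). Relative to the rest, the difference was 10 bp and the libraries overlapped (exact permutation test of 2 against 2 libraries, two-sided, p = 0.667). Median fold enrichment was higher by 0.293 under K+PEG in the arms (3.70 ± 0.085 and 3.41 ± 0.291, SD, n = 2 each), and relative to the rest by 0.112 (p = 0.33 by the same exact test for both). The size of both differences rested on single libraries. In the arms the difference was 0.0873 without K+PDS replicate 2 and 0.499 without K+PDS replicate 1, and relative to the rest it was 0.055 without K+PDS replicate 1, 0.074 without K+PEG replicate 2 and 0.170 without K+PDS replicate 2. Over the 20 tests of density, covered share, fold enrichment, length and spacing, the Benjamini-Hochberg adjusted p lay between 0.444 and 1.

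Window by window, K+PEG led over more of the arms than of the genome. Each K+PEG library exceeded each K+PDS library in 129 of 214 arm windows of 100 kb in peak number (60.3%), against 46.4% of all 3726 windows of the 12 chromosomes. The left arm had 67 of 115 such windows (58.3%) and the right arm 62 of 99 (62.6%). The opposite order was found in 7 arm windows (3.27%), 2 on the left (1.74%) and 5 on the right (5.05%), against 7.35% of all windows. In the middle of chromosome 3, K+PEG led in 51.4% and K+PDS in 3.57% of 140 windows. The low share led by K+PDS was thus not particular to the arms. When each list was cut to its 64874 strongest peaks, the K+PEG libraries led in 44.9% of arm windows against 29.3% of all windows, and the K+PDS libraries in 8.88% against 21.0%. In the middle of chromosome 3 these shares were 34.3 and 14.3%.

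In windows of 1 Mb, K+PEG led in 18 of the 20 that lie wholly in the arms, against 61.7% of 345 windows elsewhere. The exceptions were 8 to 9 Mb, with 190 and 242 peaks under K+PEG and 150 and 200 under K+PDS, and 29 to 30 Mb, with 151 and 175 against 120 and 155. The ratio of summed K+PEG to K+PDS peaks ranged in the arms between 1.16 at 3 to 4 Mb and 1.55 at 10 to 11 Mb. Between the arms it ranged over 14 windows between 0.989 at 13 to 14 Mb and 1.39 at 14 to 15 Mb, and K+PEG led in 11 of them, so the ranges of arm and middle windows overlapped.

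Reproducible peaks were next defined as segments shared by both replicates of a condition. The arms held 3156 such K+PEG peaks and 1879 such K+PDS peaks, a ratio of 1.68, against 57270 and 43145 in the rest, a ratio of 1.33. Where it met none of the other condition's reproducible peaks, such a peak was called specific. In the arms, 1858 K+PEG peaks (58.9%, 95% Wilson interval 57.1 to 60.6%) were PEG-specific, against 49.6% in the rest and 50.1% over the whole genome. Of the K+PDS peaks, 555 (29.5%, 27.5 to 31.6%) were PDS-specific, against 35.88% in the rest and 35.6% over the whole genome. The differences between arms and rest were 9.31 percentage points (95% interval 7.53 to 11.1) for PEG and -6.34 points (-8.41 to -4.19) for PDS. These intervals cover counting error only, since each condition gives 1 value.

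PEG-specific peaks thus outnumbered PDS-specific ones by 3.35 to 1 in the arms (95% interval 3.05 to 3.68), with 3.43 in the left and 3.26 in the right arm. The ratio was 1.83 in the rest and 2.16 in the middle of chromosome 3. Expressed per Mb, the arms had 86.8 PEG-specific peaks against 80.7 in the rest, but 25.9 PDS-specific peaks against 44.0. The middle of chromosome 3 had 89.3 and 41.4 per Mb, so the arms did not exceed it in PEG-specific peaks. The high ratio therefore went mainly with a low number of PDS-specific peaks. Specific segments in the arms were short, with a median of 291 bp for PEG and 235 bp for PDS, against 293 and 244 bp in the rest.

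The ratio itself moved with the peak sets. It was 6.02 when peaks had to reach 5 in −log10 p and 2.42 with equal numbers of peaks per list. When K+PDS replicate 1 was left out and the whole list of replicate 2 stood for K+PDS, the ratio was 0.838 in the arms and 0.679 in the rest, and the PDS-specific share differed by 0.372 points in place of -6.34. Without K+PDS replicate 2 the ratio was 1.29 in the arms and 0.717 in the rest, without K+PEG replicate 1 it was 10.5 and 5.06, and without K+PEG replicate 2 it was 5.39 and 2.99. Such a whole list holds more peaks than a pair of lists shares, by the way it is built. The arms had 1.83 times the ratio of the rest, and between 1.23 and 2.17 times in the 10 alternatives.

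To compare other chromosomes, the same 2 distances from the ends were applied to all 12, a comparison added after the values had been seen. The 2 segments hold 21.4 Mb together, against 22993363 bp spanned by peaks on chromosome 9 and 23196439 bp on chromosome 10. On such short chromosomes they take in nearly the whole length, so they are not distal ends alone. Among these 24 segments, the left and right ends of chromosome 3 had the highest ratios of PEG-specific to PDS-specific peaks. The ends next in order were the right ends of chromosome 1 with 3.15, of chromosome 10 with 3.10 and of chromosome 9 with 3.05. The interval of the left arm, 3.003 to 3.91, and that of the right arm, 2.85 to 3.74, include these 3 values, so the order at the top does not exceed counting error. The lowest ratio was 0.818, at the left end of chromosome 4.

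**Figure D3:**
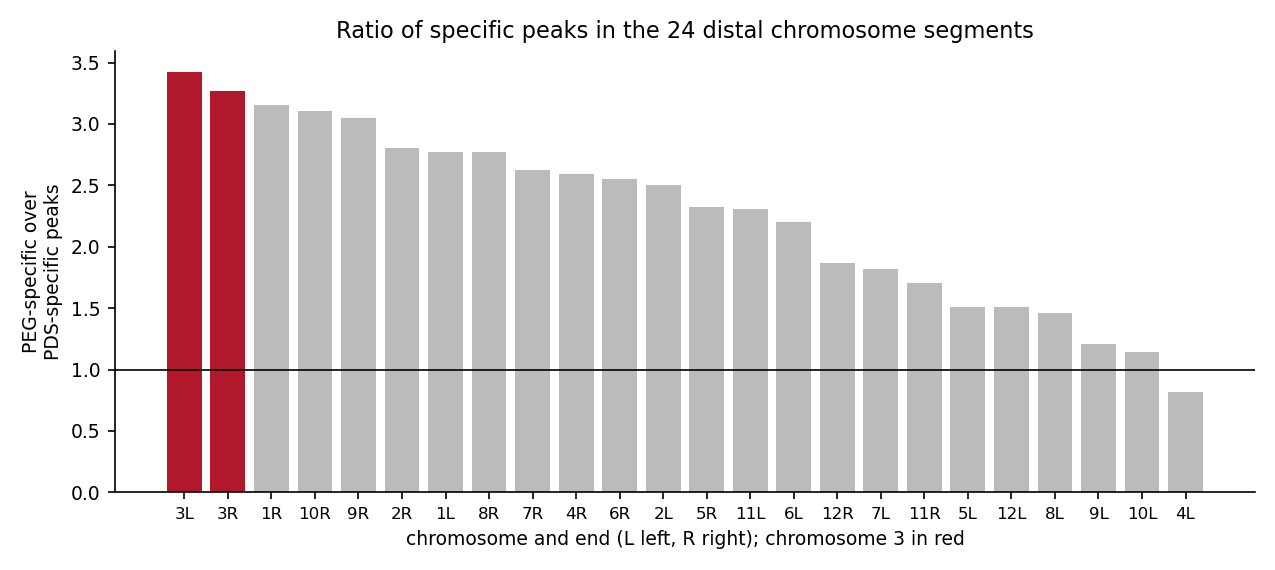
Number of PEG-specific divided by number of PDS-specific reproducible peaks in 24 segments set by distance from the ends, 2 for each chromosome (L left, R right). The chromosome 3 arms are in red, with a line at 1. On chromosomes 9 and 10 the 2 segments take in nearly the whole length. The chromosome 3 arms lead with 3.43 and 3.26, and the left end of chromosome 4 is last with 0.818.

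In K+PDS density, the chromosome 3 arms stood near the bottom of these 24 segments. The left arm was 23rd in both K+PDS replicates, and the right arm was 20th in replicate 1 and 21st in replicate 2. Their shares of K+PDS replicate 1 peaks of 1 kb or longer, 5.12% on the left and 3.95% on the right, were the lowest of all. The right ends of chromosomes 1 and 5 followed with 5.56 and 5.74%. In K+PDS replicate 2 the arms were 23rd and 22nd, and the right end of chromosome 7 was lowest with 3.72%. For this share under K+PEG, the left arm was 18th and 19th and the right arm 23rd and 24th. In median fold enrichment, the left arm was 18th and 6th in the K+PEG replicates and 18th and 21st in the K+PDS replicates, and the right arm was 7th and 10th under K+PEG and 22nd and 23rd under K+PDS. The right end of chromosome 1 had the lowest K+PDS density, with 129 and 155 peaks per Mb.

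Overlapping peaks of the 4 lists were then merged into sites, 6235 in the arms (291 per Mb) and 109620 in the rest (312 per Mb). All 4 lists shared 1311 arm sites (21.0%, against 23.9% in the rest), and 1102 (17.7%, against 18.1%) were in 3 lists. Sites with a peak in both K+PEG and in neither K+PDS list numbered 780, or 12.5% (95% Wilson interval 11.7 to 13.4%), against 10.0% in the rest. Sites with a peak in both K+PDS and in neither K+PEG list numbered 129, or 2.07% (1.74 to 2.45%), against 3.87%. These K+PDS sites were 1.59% of left-arm and 2.60% of right-arm sites. A single list held 39.5% of arm sites, against 36.5%.

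**Figure D4:**
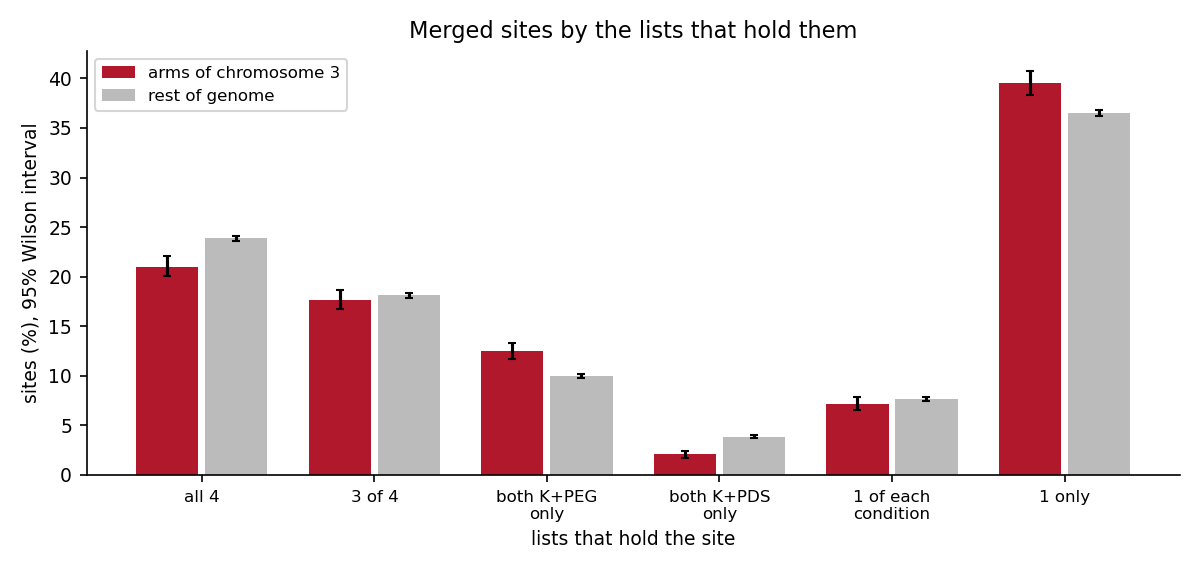
Share of merged sites (%) by the lists that hold them, in the arms of chromosome 3 (red) and in the rest of the genome (grey), with 95% Wilson intervals that cover counting error only. Sites of both K+PEG lists alone take a larger share in the arms (12.5 against 10.0%) and sites of both K+PDS lists alone a smaller one (2.07 against 3.87%).

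Overlap between the lists, like the shares of specific peaks and of sites above, depends on how many peaks each list holds in a region. It is therefore not separate support for the contrast of densities. Of the arm peaks, 37.96 and 33.7% under K+PEG lay in no peak of either K+PDS list, against 29.3 and 28.2% in the rest. For K+PDS the shares with no peak in either K+PEG list were 15.8% for replicate 1 and 30.7% for replicate 2, against 20.3 and 28.9% in the rest, so that the replicates fell on different sides of the rest. Of the K+PDS peaks in the arms, 62.7% of replicate 1 and 52.8% of replicate 2 overlapped the other replicate, against 64.3 and 62.0% in the rest. Under K+PEG, 77.0 and 71.4% of arm peaks overlapped the other replicate, against 80.1 and 69.7%.

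Sites found in all 4 lists allow strength to be compared at the same places. The 1311 arm sites had a median fold enrichment of 4.94 and 5.39 under K+PEG and 4.28 and 3.48 under K+PDS. In the 26166 other sites the medians were 4.65 and 4.99 under K+PEG and 4.69 and 3.68 under K+PDS. Shared sites in the arms were thus higher than those elsewhere in both K+PEG lists and lower in both K+PDS lists. The median log2 ratio of summed K+PEG over K+PDS enrichment was 0.42 in the arms, where 80% of the sites lay between -0.31 and 0.99, and 0.23 in the rest, between -0.64 and 0.94.

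Both K+PEG values exceeded both K+PDS values at 648 of these arm sites (49.4%), with 48.7% in the left and 50.2% in the right arm, against 38.0% of all 27477 such sites. Both K+PDS values exceeded both K+PEG values at 122 arm sites (9.31%), against 18.4% of all. In the middle of chromosome 3 the shares were 37.9 and 18.1%, close to those of the rest. A fold enrichment of 5 in every list was reached by 68 arm sites, which were 5.19% of the shared sites against 5.87% in the rest, and 3.18 per Mb against 4.37 in the rest.

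**Figure D5:**
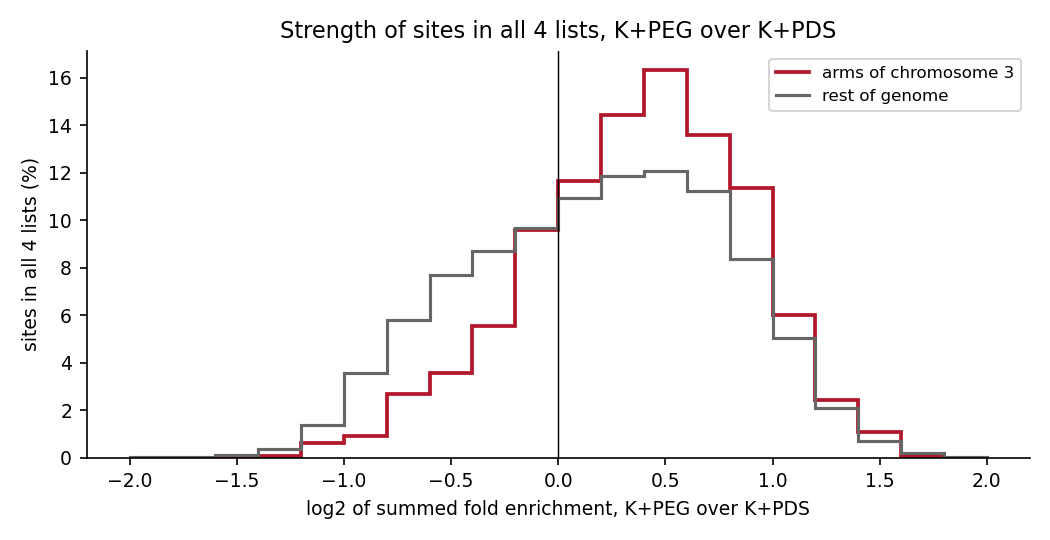
Distribution of the log2 ratio of summed fold enrichment, K+PEG over K+PDS, over sites in all 4 lists, as the share of sites (%) per bin, in the arms of chromosome 3 (red, 1311 sites) and in the rest (grey, 26166 sites). The arm curve has less mass left of 0 and a median of 0.42, against 0.23.

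Single loci give a sense of these values. The left-arm site with the highest weakest-library enrichment, chr3:5459062-5459555, had a fold enrichment of 8.81 and 9.58 under K+PEG and of 19.8 and 11.4 under K+PDS, from 48, 82, 87 and 60 reads at the summit. Both K+PDS values were above both K+PEG values there, in the minority order. The second in the left arm, chr3:11684209-11684686, had 10.6 and 9.47 under K+PEG and 10.5 and 7.70 under K+PDS, so the conditions overlapped. The other 3 left-arm sites chosen by this rule, at 1291221 to 1291919, 10978686 to 10979281 and 8623148 to 8623710, had at least 6.83 in every library.

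In the right arm, the site at chr3:29052328-29052907 had 10.7 and 9.48 under K+PEG and 11.97 and 10.8 under K+PDS, from 63, 88, 56 and 61 reads, and its 4 summits lay within 35 bp. At chr3:26978424-26979243 the values were 9.86 and 9.49 under K+PEG and 19.4 and 9.13 under K+PDS, so that only 1 K+PDS library stood out. At chr3:26922989-26923437 they were 8.71 and 9.41 under K+PEG and 9.53 and 13.8 under K+PDS. The sites at 28018170 to 28018944 and 33920831 to 33921351 had higher K+PEG values, with 11.02 and 10.9 against 8.37 and 7.11 at the first and 7.66 and 8.29 against 7.16 and 7.05 at the second.

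The strongest PEG-specific peaks without any K+PDS peak in the left arm lay at chr3:10336580-10336922, with 9.30 and 6.61 in the K+PEG replicates, at chr3:3259759-3260298, with 6.27 and 6.71, and at chr3:6553578-6553955, with 8.65 and 6.22. The nearest K+PDS peaks were 506, 5711 and 1304 bp away. In the right arm they lay at chr3:26684622-26685092 (7.36 and 6.61), chr3:31127818-31128115 (7.38 and 6.38) and chr3:28762194-28762571 (6.37 and 7.20). All 6 had at least 33 reads at the summit in either replicate.

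The strongest PDS-specific peaks had a lower enrichment in their weaker replicate and mostly fewer reads. They were picked from 202 arm peaks that met no K+PEG peak, against 881 PEG-specific ones that met no K+PDS peak. The part of this number and of the depth of the lists in the contrast cannot be told apart from that of the condition. In the left arm, chr3:11872251-11872999 had 5.93 under K+PDS in replicate 1 (30 reads) and 4.06 in replicate 2 (34 reads), with the nearest K+PEG peak 3052 bp away. At chr3:5870476-5870531 the values were 7.05 and 4.33, but the replicates shared only 56 bp and a K+PEG peak lay 28 bp away. The third, at chr3:7118023-7118308, had 3.86 and 4.42. In the right arm, chr3:27907147-27907703 had 5.40 and 5.28, chr3:32770633-32770929 had 4.82 and 5.02, with the nearest K+PEG peak 2325 bp away, and chr3:34153154-34153246 had 5.78 and 4.30 over a shared segment of 93 bp. In every case a place without a peak is one below the threshold of the list and was not shown to lack signal.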

How the data were processed

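According to the methods and processing notes, the authors used Trim Galore 0.4.4 for trimming, BWA 0.7.17 for alignment to MSU v7.0 and SAMtools 1.5 to drop duplicates, and discarded alignments of 50 bp or less. Each library was then given to MACS2 2.1.1 on its own, with a p threshold of 0.01 and 380000000 bp as genome size. The control and the extension size are not given in the sources used here. The deposited fold enrichment is a linear ratio of summit reads to local background, taken here with 1 added to each. The deposited −log10 p and −log10 q are those of the summit. The deposited score is written by MACS2 for display and was not used. Printed starts are the file's start plus 1 bp.

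Values were computed in Python 3.11.15 with numpy 2.4.6, pandas 2.3.3 and scipy 1.17.1, and figures with matplotlib 3.10.9. Libraries, not peaks, were the replicates. Arms and rest, and the left and right arms, were compared by exact sign-flip tests over 4 libraries, and conditions by exact permutation of 2 against 2. Summit reads were solved from fold enrichment and −log10 p under the Poisson model of MACS2, and whole reads came out for all but 4 of the 289038 peaks (tolerance 0.01 in −log10 p). The scripts were tested on simulated data.

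Peaks overlapped when they shared at least 1 bp. Loci named were, in each arm, the 5 sites of all 4 libraries with the highest enrichment in the weakest library, the 3 PEG-specific and 3 PDS-specific peaks that met no peak of the opposite condition with the highest enrichment in the weaker replicate, the fullest and emptiest windows, the longest gaps and the highest peaks. Members and lists were chosen with earlier results of these data known. The classes of length and enrichment, the strength at shared sites and the chromosome ends were added after the values were seen. Sequence and annotation of the genome were not used here.

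Alternatives were a minimum of 5 in −log10 p, equal numbers of peaks per list, arm limits moved inward by 1 Mb, the middle of chromosome 3 as the reference, a reciprocal overlap of at least 50%, specific peaks set against all peaks of the opposite condition, peaks placed by their midpoint, means for medians, windows of 1 Mb, the replicate block and each library left out. Leaving out libraries for the specific peaks and windows was added after the data were seen.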

Additional observations from a re-analysis of the deposited data

How the results depend on the processing

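Of 260 values under alternatives for 29 results, 30 could not move. Placing peaks by their midpoint moved 0 peaks between regions (20 values), and the replicate block leaves a difference of means as it is (10 values). Of the other 230, 201 were counted as keeping their direction or, where no test was run, as moving little, 16 moved and 13 changed direction. The 201 include every alternative for the share of 100-kb arm windows led by K+PEG, 60.3% in the main setting. That share did not move little. It was 44.9% with equal numbers of peaks, 82.7% with a minimum of 5 in −log10 p and 90% in windows of 1 Mb. With a library left out it was 63.1 to 83.2%, so the count of 201 overstates its stability. No test could pass 0.05, so the side of the threshold says nothing about stability. The changes of direction concerned left against right arm, and the PDS-specific share and the ratio without K+PDS replicate 1. The median fold enrichment, left minus right, was -0.0021, and 0.00032 with a minimum of 5 in −log10 p, 0.021 with equal numbers of peaks, 0.0080 as a mean and between -0.019 and 0.031 with a library left out. The log2 ratio of median spacing, left over right, was 0.0046, and -0.030, -0.0042 and -0.076 with that minimum, equal numbers and limits moved inward, and -0.012 to 0.019 with a library left out. With limits moved inward, the log2 ratio of covered share was 0.021 and the difference in median length -0.375 bp. As a mean in place of a median, length was greater by 9.98 bp in the left arm, in every library (exact sign-flip permutation test, two-sided, p = 0.13, the smallest possible). Since the direction depended on the setting, no order of the arms is given for these measures.

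The PEG-specific share, arms minus rest, was 3.54 percentage points with a reciprocal overlap, 5.98 against all peaks of the opposite condition, 7.51 with equal numbers of peaks, and 6.80 to 10.8 with a library left out. The PDS-specific share differed by -8.62, -3.71 and -8.72 points in the same 3 settings, by -3.21 against the middle of chromosome 3, and by -6.87 to 0.372 with a library left out. The ratio in the arms was 4.36 against all peaks, 6.02 with a minimum of 5 in −log10 p, 2.42 with equal numbers of peaks and 0.838 to 10.5 with a library left out.

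With a library left out, the log2 density of arms over rest ranged from -0.26 to -0.15 and that of covered bases from -0.44 to -0.26. Replicate numbers were not shown to pair the samples, since deviations of same-numbered libraries correlated at -0.091 over all windows, and with the replicate block the log2 density contrast of conditions between arms and rest was 0.20 as without it (exact test, p = 0.5, the smallest possible). Arm summits held a median of 22 and 34 reads under K+PEG and of 16 and 17 under K+PDS, and the effect of depth on the lists was not tested.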
